A study of Mus musculus with 12 samples.

Results

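The T-box, GATA, PAX, RUNX, HAND, OLIG and homeobox genes of the sine oculis (Six2 and relatives), Lhx, Alx, Barx, Dlx, Msx, Prrx, Meox, Meis, Pbx, Pitx, Irx, Isl and Nkx families were followed across the stable derivatives of ImPSC-1, a mouse pancreatic stellate cell line labelled as pancreatic mesenchymal cells. Members were picked by a rule on gene names, chosen with earlier results of these data known. The table of raw counts named 100 of them among 49671 genes. Of these, 53 had at least 10 counts in 3 or more libraries, are called expressed here, and were all among the 15271 genes tested. RNA was sequenced from 12 libraries, 3 per group, to ask what cell-intrinsic KITL, the growth factor that activates the KIT receptor, does in pancreatic mesenchyme. The shKitl cells are labelled as a Kitl knock down and carry a hairpin named sh2KitL. Their controls, shCtrl cells, are labelled as wild type and carry PLKO-1, the hairpin vector. The Kitl_OE cells overexpress Kitl, and the Egfp_OE cells overexpress Egfp as their control. All 4 groups are stable derivatives of the same line, the labels do not say how many clones each holds, and each library carries a P number (13, 14 and 15 in shKitl, 14, 15 and 16 in shCtrl, 18, 19 and 20 in Kitl_OE, 17, 18 and 19 in Egfp_OE) whose meaning the labels do not give. Nor do they state separate cultures for the 3 libraries of a line, and p-values therefore reflect spread among these samples that may be technical.

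These families encode sequence-specific DNA-binding proteins that set and keep the identity of cells during development, many of them in the mesenchyme of organs and limbs. Homeobox proteins bind DNA through a helix-turn-helix homeodomain, T-box proteins through the T domain, GATA proteins through zinc fingers, RUNX proteins through the Runt domain together with CBFB, and HAND and OLIG proteins as basic helix-loop-helix dimers. In the pancreas, GATA4 and GATA6 act in the epithelium, and ISL1, NKX3-2 and BARX1 belong to the mesenchyme around the pancreas, stomach and spleen. In the related stellate cells of the mouse liver, LHX2 and GATA4 are known to hold back activation.

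Libraries held 24979742 to 33517686 counts in genes. Egfp_OE replicate 2 stood apart, with 1.35% of its counts in ERCC spike-in RNA against 0.446% to 0.684% in the other libraries; without it, 33 members passed in Kitl_OE against Egfp_OE cells, where 36 passed with it, while the share of all genes called was 39.4% without it and 34.3% with it. Levels within a gene are given in CPM, counts scaled to a common library size. Kitl itself had 25.1, 25.5 and 30.3 CPM in shKitl cells, against 73.5, 73.6 and 76.4 CPM in shCtrl cells, a log2 fold change of -1.47 (SE 0.26, adjusted p = 0.121), which missed the threshold of 0.05. Such tests are edgeR quasi-likelihood fits with Benjamini-Hochberg adjustment over all genes tested. It had 125, 114 and 128 CPM in Kitl_OE cells, against 72.5, 31.8 and 72.3 CPM in Egfp_OE cells, a log2 fold change of 1.06 (SE 0.25, adjusted p = 0.00836). In both comparisons the libraries did not overlap, in the direction of the labels. All 12 stellate and mesenchymal markers examined were tested, with summed levels of 5102 to 25460 CPM. The islet genes Ins1 and Ins2 and the T cell gene Cd3e had no count in any library. Nor did the epithelial factors Pdx1, Ptf1a, Neurog3, Neurod1 and Rfx6. Other genes of the same lists were present. By library, the pancreatic epithelial list summed to 4.78 to 15.1 CPM and the blood and mast cell list to 5.21 to 30.8 CPM. The epithelial lineage factors summed to 3.15 to 78.7 CPM, with Sox9 at a mean of 66.9 CPM in Egfp_OE cells.

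The expressed members spanned a wide range of levels. In TPM, the length-scaled unit used here to compare genes, their means over the 12 libraries ran between 0.0915 and 72.9 with a median of 9.24, and 24 of the 53 lay above 10 TPM and 10 below 1 TPM. The highest mean belonged to Irx1, an Iroquois patterning factor. Six2, which keeps nephron progenitors undifferentiated, followed at 66.6 TPM. Nkx2-3, a factor of gut and splenic mesenchyme, had 47.1 TPM, Gata6 42.7, Prrx1 41.2 and Barx1 40.9 TPM. These means hide large differences between groups: the mean level of Six2 was 5.17 TPM in Kitl_OE cells and 104 TPM in Egfp_OE cells, while that of Irx1 was 160 TPM in Kitl_OE cells and 27.4 TPM in Egfp_OE cells. Kitl_OE was the group with the lowest mean CPM for 28 of the 53 members, shCtrl for 13, Egfp_OE for 10 and shKitl for 2. The highest mean was in shKitl for 15 members, in Kitl_OE for 13, in Egfp_OE for 13 and in shCtrl for 12.

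The other 47 members fell below the minimum, 14 of them without a count in any library and 24 with at most 1 to 3 counts in their highest library. Among those without a count were Hand1, Tbx5, Meox2, Pax7, Nkx2-1, Nkx2-2 and Pitx1, which mark heart, somite, lung, endocrine or hindlimb lineages. Nkx2-5, a cardiac and splenic homeobox gene, reached 3 counts at most, and Meox1, a somite gene, reached 13. The highest count among these 47 was 24, in Dlx3. A count of 0 limits the level in a library only as far as 3 counts allow.

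**Figure D1:**
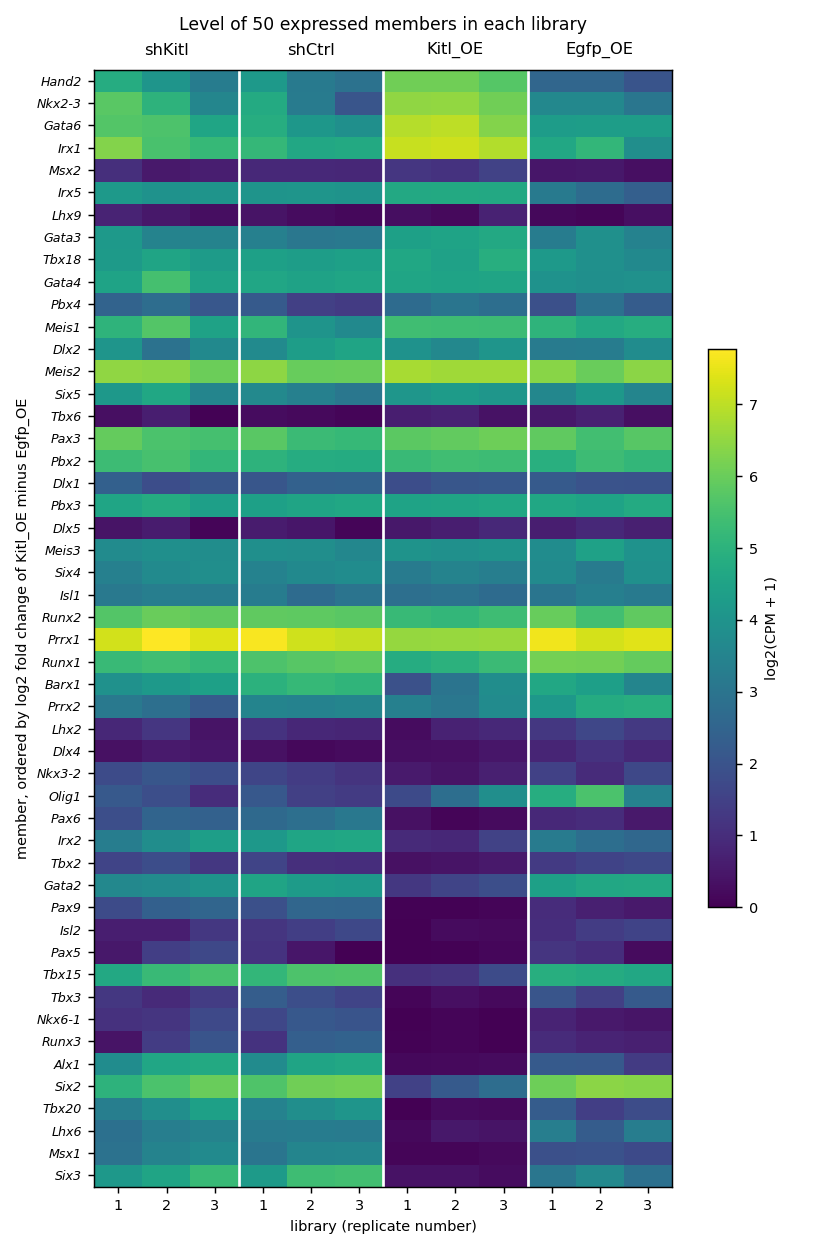
Level of 50 of the 53 expressed members as log2(CPM + 1) in each of the 12 libraries (columns, grouped by line, with replicate numbers), ordered by the log2 fold change of Kitl_OE minus Egfp_OE. The lowest rows, with Six3, Msx1 and Lhx6, are dark in the 3 Kitl_OE libraries, and the uppermost rows, with Hand2, Nkx2-3, Gata6 and Irx1, are brightest there.

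Overexpression of Kitl was accompanied by the broadest differences. In Kitl_OE cells 36 of the 53 members passed an adjusted p of 0.05 by edgeR, 8 higher and 28 lower than in Egfp_OE cells. That is 67.9% of the members, beside 34.3% of all genes tested. The share called higher, 15.1%, was close to the 15.4% of all genes, and the share called lower was 52.8% beside 18.9%. The median log2 fold change over the members was -0.77, against -0.070 over all genes, and the median absolute value was 1.66 against 0.54. An absolute log2 fold change of 3 or more was reached by 17 members, while 7.64% of all genes reached it. Libraries of both groups did not overlap for 39 members (73.6%), beside 50.5% of all genes. By family, all 3 Runx genes and both Prrx genes fell, as did 4 of 6 Tbx and 3 of 4 Pax genes tested (Runx3 but neither Prrx gene with spike-in scaling), while 2 of 4 Gata and 2 of 3 Irx genes rose. None of the 3 Meis genes passed the test. In bulk samples such as these, fewer cells of a type and less RNA per cell cannot be told apart.

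**Figure D2:**
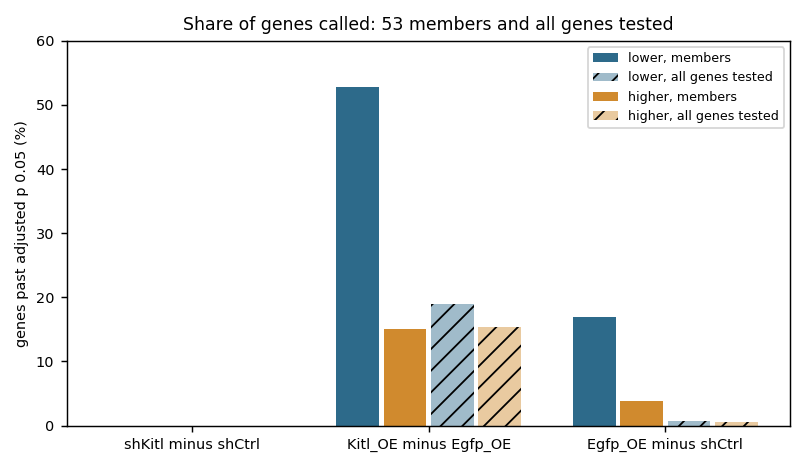
Percentage of genes past an adjusted p of 0.05 (vertical axis, starting at 0), lower and higher, in each comparison; solid bars are the 53 members, hatched bars all 15271 genes tested. In Kitl_OE minus Egfp_OE, 52.8% of the members were lower against 18.9% of all genes, while 15.1% of the members and 15.4% of all genes were higher.

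The member with the largest increase was Hand2 (ENSMUSG00000038193, chr8:57320983-57324633, plus strand), which encodes a basic helix-loop-helix factor of heart, limb and neural crest mesenchyme. It stood at 67.1, 67.1 and 52.1 CPM in Kitl_OE cells, against 4.87, 4.97 and 3.05 CPM in Egfp_OE cells. The log2 fold change was 3.85 (SE 0.46, adjusted p = 0.000134). Nkx2-3 (ENSMUSG00000044220, chr19:43612325-43615892, plus strand), needed in the mouse for the spleen and gut-associated lymphoid tissue, had 87.7, 90.98 and 66.5 CPM in Kitl_OE cells, against 11.4, 11.4 and 7.35 CPM in Egfp_OE cells, a log2 fold change of 3.02 (SE 0.69, adjusted p = 0.00640). For both, each Kitl_OE library lay far above each Egfp_OE library, and the Kitl_OE libraries were also above all 6 hairpin libraries. Their promoters are shown because they head the members that rose. Each window runs 250 bases before to 50 after the annotated start (RefSeq, GRCm38.p6), and is written 5′ to 3′ on the gene's strand. Capitals mark every match, on either strand, to 6 short motifs. The letters AGATAA are the motif of GATA factors. The letters CANNTG are the E-box of basic helix-loop-helix factors such as HAND2. The letters TCACACC are a T-box motif, TGTGGT is the motif of RUNX factors, and the NKX motif searched was CACTTA. The last was TATAAA, the TATA box of the core promoter. The Hand2 window is chr8:57320733-57321032, plus strand, and the Nkx2-3 window is chr19:43612075-43612374, plus strand.
Hand2: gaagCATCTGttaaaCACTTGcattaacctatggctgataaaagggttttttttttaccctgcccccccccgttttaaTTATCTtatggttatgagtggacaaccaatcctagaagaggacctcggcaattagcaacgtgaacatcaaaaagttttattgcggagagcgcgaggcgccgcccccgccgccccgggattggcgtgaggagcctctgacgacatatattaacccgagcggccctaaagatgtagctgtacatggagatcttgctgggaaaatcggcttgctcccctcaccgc
Nkx2-3: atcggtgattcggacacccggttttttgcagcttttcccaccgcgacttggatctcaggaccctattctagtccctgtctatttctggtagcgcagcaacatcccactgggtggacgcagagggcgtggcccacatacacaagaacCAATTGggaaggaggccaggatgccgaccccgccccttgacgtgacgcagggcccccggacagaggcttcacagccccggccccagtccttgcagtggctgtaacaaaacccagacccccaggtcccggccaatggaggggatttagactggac

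The capitals in the Hand2 window are 2 E-boxes and, in the reverse direction, 1 GATA motif; those in the Nkx2-3 window are 1 E-box. All 5 members that rose and had a window held an E-box, as 72.3% of all 32851 promoter windows do; of the 25 windows of members that fell, 12 held one (48.0%). A GATA motif stood in 11.2% of all windows. A T-box motif stood in 3.98% and a TATA box in 13.6% of all windows. A match describes letters and is not a binding site, and its absence says only that the letters are not in the window. Over the 37 expressed members with a window (45 windows), the median was 21 CpG dinucleotides per window, against 7 over all windows, and the median GC content 63.7% against 52.7%. No window was matched for the other 16, Gata6, Irx1, Irx5, Alx1 and Tbx15 among them.

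Among GATA factors, Gata6 (ENSMUSG00000005836, chr18:11052064-11085635, plus strand), which with Gata4 is required for the pancreas to form, had 118, 128 and 79.7 CPM in Kitl_OE cells, against 18.8, 18.9 and 18.9 CPM in Egfp_OE cells. Its log2 fold change was 2.52 (SE 0.34, adjusted p = 0.000268). The Egfp_OE values were almost the same, and every Kitl_OE library was far above them. Gata3, a factor of T cells, sympathetic neurons and kidney ducts, had 20.5, 21.5 and 24.96 CPM in Kitl_OE cells, against 8.59, 13.9 and 9.80 CPM in Egfp_OE cells, a log2 fold change of 1.06 (SE 0.25, adjusted p = 0.00806). Gata2 (ENSMUSG00000015053, chr6:88193891-88207032, plus strand), which works in blood stem cells, mast cells and endothelium, went the other way, with 1.40, 2.02 and 2.66 CPM in Kitl_OE cells, against 20.4, 24.4 and 24.9 CPM in Egfp_OE cells. Its log2 fold change was -3.51 (SE 0.25, adjusted p = 5.50e-06), the lowest adjusted p of any member. Gata4 had 22.7, 21.8 and 22.3 CPM in Kitl_OE cells, against 14.4, 13.5 and 14.3 CPM in Egfp_OE cells; these libraries did not overlap, but the log2 fold change of 0.66 (SE 0.24, adjusted p = 0.0516) missed the threshold and passed it without shKitl replicate 1 (adjusted p = 0.0411), shKitl replicate 2 (0.00361) or shKitl replicate 3 (0.0349). Within this one family 2 genes rose, 1 fell and 1 did not pass.

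The 3 expressed Iroquois genes split as well. Irx1 (ENSMUSG00000060969, chr13:71957921-71963723, minus strand) had 137, 144 and 116 CPM in Kitl_OE cells, against 24.4, 34.2 and 13.2 CPM in Egfp_OE cells, a log2 fold change of 2.47 (SE 0.36, adjusted p = 0.000440). Irx2, which lies 665096 bases from it on chromosome 13, had 0.895, 0.806 and 1.91 CPM in Kitl_OE cells, against 8.36, 5.97 and 5.07 CPM in Egfp_OE cells, a log2 fold change of -2.42 (SE 0.39, adjusted p = 0.000892). These neighbours moved in opposite directions, and neither had overlapping libraries. Irx5, known for setting the repolarization gradient of the mouse heart, had 24.6, 25.2 and 24.99 CPM in Kitl_OE cells, against 8.30, 5.65 and 4.13 CPM in Egfp_OE cells, a log2 fold change of 2.04 (SE 0.23, adjusted p = 7.55e-05). Its Kitl_OE libraries were close to each other and clear of every Egfp_OE library.

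The Msx genes, which act downstream of BMP signals in face, tooth and limb mesenchyme, also divided. Msx1 (ENSMUSG00000048450, chr5:37820485-37824583, minus strand) had 0.0778, 0.0733 and 0.137 CPM in Kitl_OE cells, against 2.72, 2.88 and 2.38 CPM in Egfp_OE cells, a log2 fold change of -4.72 (SE 0.39, adjusted p = 1.29e-05). Msx2, a gene of lower level, had 1.36, 1.21 and 1.91 CPM in Kitl_OE cells, against 0.372, 0.401 and 0.235 CPM in Egfp_OE cells, a log2 fold change of 2.14 (SE 0.41, adjusted p = 0.00222). Both showed no overlap of libraries, in opposite directions.

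Of 6 T-box genes tested, 4 fell. Tbx15 (ENSMUSG00000027868, chr3:99240381-99354259, plus strand), which acts in skeletal and adipose mesenchyme, had 1.13, 1.25 and 2.39 CPM in Kitl_OE cells, against 28.4, 26.6 and 24.1 CPM in Egfp_OE cells, a log2 fold change of -4.04 (SE 0.32, adjusted p = 8.89e-06). Tbx20, a heart factor, had 0, 0.183 and 0.137 CPM in Kitl_OE cells, against 3.75, 1.72 and 2.48 CPM in Egfp_OE cells, a log2 fold change of -4.56 (SE 0.62, adjusted p = 0.000296). The repressors Tbx3 and Tbx2, which limit chamber genes in the heart and pattern the limb, fell too. Tbx3 had 0.0778, 0.257 and 0.137 CPM in Kitl_OE cells, against 3.18, 1.76 and 3.62 CPM in Egfp_OE cells, a log2 fold change of -4.14 (SE 0.50, adjusted p = 0.000142). Tbx2 had 0.272, 0.330 and 0.444 CPM in Kitl_OE cells, against 1.49, 1.96 and 2.25 CPM in Egfp_OE cells, a log2 fold change of -2.42 (SE 0.41, adjusted p = 0.00108). In all 4 genes every Kitl_OE library lay below every Egfp_OE library. Tbx18, the closest relative of Tbx15 and a marker of the epicardium and of ureter mesenchyme, rose instead, with 23.9, 21.03 and 28.2 CPM in Kitl_OE cells, against 16.97, 13.9 and 11.98 CPM in Egfp_OE cells and a log2 fold change of 0.77 (SE 0.18, adjusted p = 0.00673). Tbx6, a gene of presomitic mesoderm, was at most 0.66 CPM in these groups and did not pass (log2 fold change 0.29, adjusted p = 0.765).

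**Figure D3:**
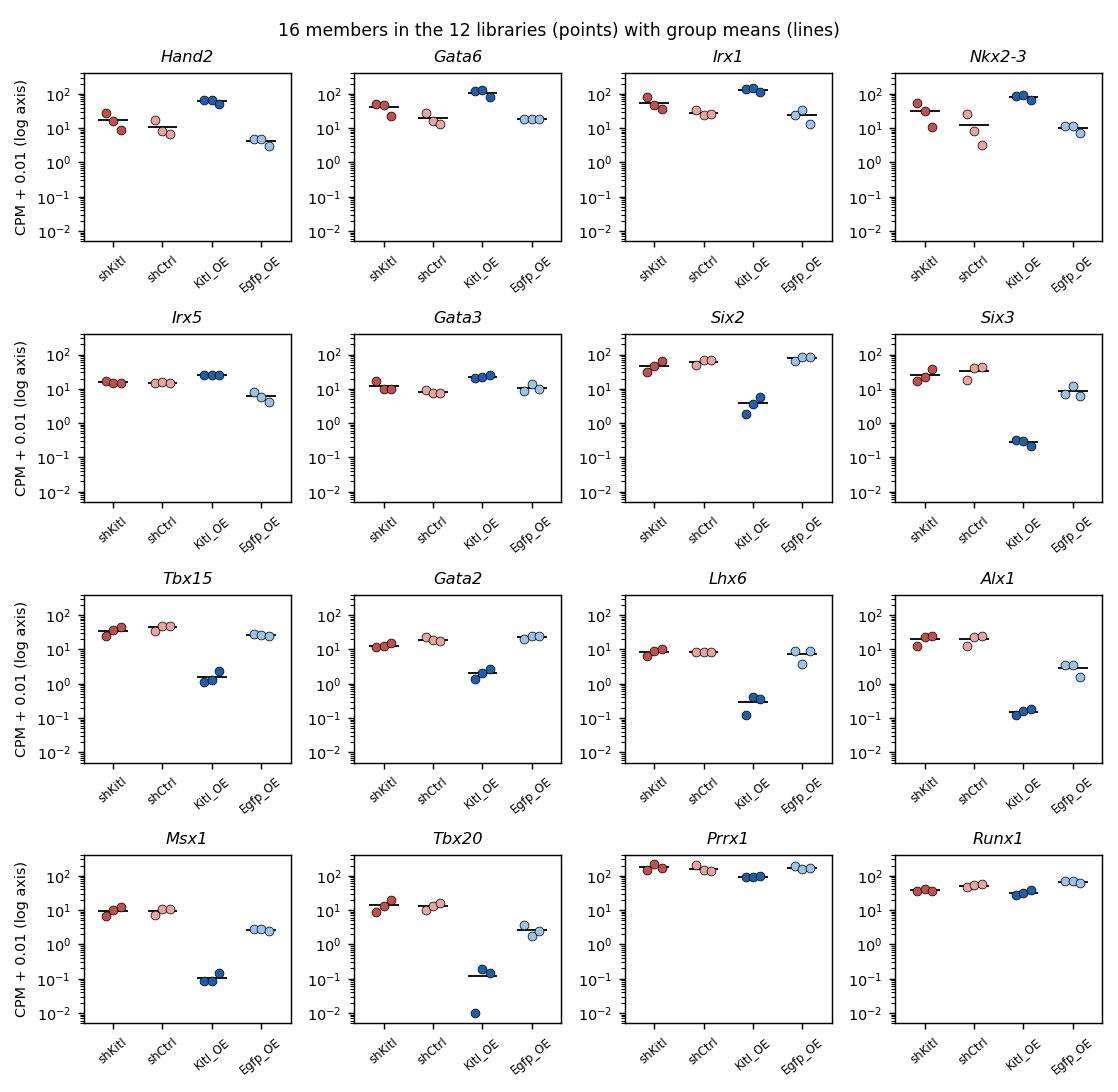
CPM + 0.01 on a log axis for 16 members; each point is 1 library, each line the mean of its group, with shKitl, shCtrl, Kitl_OE and Egfp_OE left to right. In the Kitl_OE column Hand2, Gata6, Irx1 and Nkx2-3 lie above the other groups, and Six3, Alx1, Msx1 and Tbx20 lie below 1 CPM.

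The sine oculis family held the largest decrease. Six2 (ENSMUSG00000024134, chr17:85684277-85688274, minus strand) had 1.83, 3.55 and 5.84 CPM in Kitl_OE cells, against 65.6, 84.6 and 81.99 CPM in Egfp_OE cells, a log2 fold change of -4.36 (SE 0.40, adjusted p = 2.51e-05). Six3 (ENSMUSG00000038805, chr17:85613608-85629302, plus strand), which specifies the eye field and forebrain, had 0.311, 0.293 and 0.205 CPM in Kitl_OE cells, against 7.27, 11.7 and 6.28 CPM in Egfp_OE cells, and a log2 fold change of -4.95 (SE 0.49, adjusted p = 3.97e-05), the lowest of the 53 members. In both genes the groups were far apart. Six2 and Six3 lie 54974 bases from each other on opposite strands of chromosome 17, so their promoters are set side by side, from chr17:85688205-85688504, minus strand for Six2 and chr17:85620584-85620883, plus strand for Six3; capitals mark the same 6 motifs.
Six2: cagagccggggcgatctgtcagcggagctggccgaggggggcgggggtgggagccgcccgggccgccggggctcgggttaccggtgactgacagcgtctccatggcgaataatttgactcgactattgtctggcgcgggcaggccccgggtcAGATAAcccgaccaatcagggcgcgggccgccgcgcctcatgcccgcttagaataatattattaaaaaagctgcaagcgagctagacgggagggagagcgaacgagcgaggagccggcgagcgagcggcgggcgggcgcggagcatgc
Six3: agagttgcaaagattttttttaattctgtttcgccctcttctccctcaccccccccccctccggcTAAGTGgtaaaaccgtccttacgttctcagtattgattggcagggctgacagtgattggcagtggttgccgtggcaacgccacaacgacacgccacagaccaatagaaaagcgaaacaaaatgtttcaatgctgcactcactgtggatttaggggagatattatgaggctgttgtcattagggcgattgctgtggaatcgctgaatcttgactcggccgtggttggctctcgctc

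The Six2 window is rich in CpG (37 dinucleotides) and holds 1 GATA motif; the Six3 window has 14 CpG and 1 NKX motif in the reverse direction, a motif found in 9.2% of all windows. Six4 and Six5 did not pass, at log2 fold changes of -0.32, adjusted p = 0.296, and 0.38, adjusted p = 0.340.

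Lhx6 and Alx1, a LIM and a paired-type homeobox gene, had log2 fold changes among the lowest of the members in Kitl_OE cells. Lhx6, a gene of tooth mesenchyme and forebrain interneurons, had 0.117, 0.403 and 0.341 CPM in Kitl_OE cells, against 9.04, 3.77 and 8.79 CPM in Egfp_OE cells, a log2 fold change of -4.62 (SE 0.46, adjusted p = 4.20e-05). Alx1, required for the frontonasal skeleton, had 0.117, 0.147 and 0.171 CPM in Kitl_OE cells, against 3.63, 3.49 and 1.54 CPM in Egfp_OE cells, a log2 fold change of -4.27 (SE 0.50, adjusted p = 0.000109). Both stood below 0.5 CPM in every Kitl_OE library and above 1 CPM in every Egfp_OE library. Prrx1 and Prrx2, general factors of limb and craniofacial mesenchyme, were also lower in Kitl_OE than in Egfp_OE cells. Prrx1 had 92.8, 93.8 and 97.2 CPM in Kitl_OE cells, against 195, 153 and 169.8 CPM in Egfp_OE cells, a log2 fold change of -0.87 (SE 0.19, adjusted p = 0.00538). Prrx2 had 9.38, 7.47 and 12.5 CPM in Kitl_OE cells, against 16.5, 26.6 and 28.2 CPM in Egfp_OE cells, a log2 fold change of -1.28 (SE 0.30, adjusted p = 0.00705). Its mean of 9.79 CPM in Kitl_OE cells lay between those of shCtrl (10.3 CPM) and shKitl cells (5.92 CPM), and Egfp_OE cells were the highest group. Prrx1 was still among the higher members in Kitl_OE cells, at a mean of 24.6 TPM. Lhx2 had 0.195, 0.659 and 0.854 CPM in Kitl_OE cells, against 1.37, 2.12 and 1.44 CPM in Egfp_OE cells; the libraries did not overlap, and the log2 fold change of -1.51 (SE 0.55, adjusted p = 0.0522) missed the threshold, passing it without shKitl replicate 2 (adjusted p = 0.0427), shKitl replicate 3 (0.0328) or Kitl_OE replicate 3 (0.0490).

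Of the factors known from pancreatic and gastric mesenchyme, Nkx3-2 and Barx1 fell in Kitl_OE cells, and Isl1 did not pass. Nkx3-2, of splenic and pancreatic mesenchyme and the axial skeleton, had 0.467, 0.330 and 0.615 CPM in Kitl_OE cells, against 1.86, 0.921 and 2.25 CPM in Egfp_OE cells, a log2 fold change of -1.83 (SE 0.40, adjusted p = 0.00521). Isl1, which the mesenchyme of the dorsal pancreas needs, had 6.15, 6.67 and 5.60 CPM in Kitl_OE cells, against 7.18, 9.21 and 8.02 CPM in Egfp_OE cells, with a log2 fold change of -0.41 (SE 0.21, adjusted p = 0.157) that did not pass. Its relative Isl2, a motor neuron gene, had 0, 0.183 and 0.137 CPM in Kitl_OE cells, against 1.03, 1.60 and 1.95 CPM in Egfp_OE cells, a log2 fold change of -3.76 (SE 0.68, adjusted p = 0.00167). Here the libraries of the 3 genes did not overlap, yet only the Nkx3-2 and Isl2 calls passed. Barx1, a gene of stomach mesenchyme, had 2.80, 6.998 and 13.1 CPM in Kitl_OE cells, against 24.3, 20.1 and 10.7 CPM in Egfp_OE cells, a log2 fold change of -1.26 (SE 0.44, adjusted p = 0.0457). The highest Kitl_OE library of Barx1 was above the lowest Egfp_OE library. The Barx1 call ended without any single library other than Egfp_OE replicate 3 or Kitl_OE replicate 3, with adjusted p up to 0.134 when Egfp_OE replicate 1 was left out.

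The TALE homeobox proteins of the Pbx and Meis families, which bind DNA together with HOX and other homeodomain proteins, held members that did not pass. Pbx2 had 37.8, 40.6 and 39.2 CPM in Kitl_OE cells, against 29.02, 39.5 and 34.3 CPM in Egfp_OE cells, a log2 fold change of 0.19 (SE 0.16, adjusted p = 0.373). Meis1 had 41.05, 40.2 and 38.9 CPM in Kitl_OE cells, against 32.5, 24.6 and 27.6 CPM in Egfp_OE cells, a log2 fold change of 0.50 (SE 0.37, adjusted p = 0.316). The Pbx2 libraries overlapped, while Meis1 was higher in each Kitl_OE library without passing the test. Pbx3, Pbx4, Meis2 and Meis3 had log2 fold changes between -0.14 and 0.54, none of which passed.

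All 3 Runx genes fell, of which Runx3 alone passed with spike-in scaling. Runx1, the master regulator of definitive blood formation, had 27.2, 31.2 and 38.2 CPM in Kitl_OE cells, against 70.2, 68.8 and 60.7 CPM in Egfp_OE cells, a log2 fold change of -1.05 (SE 0.16, adjusted p = 0.000547). Runx2, which drives the osteoblast fate, had 36.3, 34.3 and 39.7 CPM in Kitl_OE cells, against 61.8, 42.1 and 57.5 CPM in Egfp_OE cells, a log2 fold change of -0.55 (SE 0.16, adjusted p = 0.0229). No library of either gene overlapped between groups. The Runx2 call was not kept without Egfp_OE replicate 1 (adjusted p = 0.0810), Egfp_OE replicate 3 (0.0658), Kitl_OE replicate 1 (0.0866) or Kitl_OE replicate 2 (0.102). Runx3, known in T cells and sensory neurons, had 3 counts in all in the Kitl_OE libraries and 69 in the Egfp_OE libraries; Egfp_OE held 21.1 times the Kitl_OE level, with an exact 95% interval of 6.93 to 105 that covers counting error only. The windows farthest upstream of the 3 genes are shown because the genes fell together and because RUNX motifs recur in them, at chr16:92826025-92826324, minus strand for Runx1, chr17:44814578-44814877, minus strand for Runx2 and chr4:135120395-135120694, plus strand for Runx3.
Runx1: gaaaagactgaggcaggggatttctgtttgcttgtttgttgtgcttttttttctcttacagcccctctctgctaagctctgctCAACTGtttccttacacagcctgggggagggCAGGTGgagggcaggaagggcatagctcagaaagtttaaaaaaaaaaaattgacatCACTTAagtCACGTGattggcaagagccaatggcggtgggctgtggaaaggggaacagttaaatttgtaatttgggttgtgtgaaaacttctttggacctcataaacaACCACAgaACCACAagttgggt
Runx2: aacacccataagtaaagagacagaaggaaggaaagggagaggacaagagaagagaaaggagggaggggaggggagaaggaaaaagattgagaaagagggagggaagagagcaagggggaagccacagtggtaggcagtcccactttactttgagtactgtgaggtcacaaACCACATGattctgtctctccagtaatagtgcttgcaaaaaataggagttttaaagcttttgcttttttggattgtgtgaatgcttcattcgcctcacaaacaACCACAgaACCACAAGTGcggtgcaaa
Runx3: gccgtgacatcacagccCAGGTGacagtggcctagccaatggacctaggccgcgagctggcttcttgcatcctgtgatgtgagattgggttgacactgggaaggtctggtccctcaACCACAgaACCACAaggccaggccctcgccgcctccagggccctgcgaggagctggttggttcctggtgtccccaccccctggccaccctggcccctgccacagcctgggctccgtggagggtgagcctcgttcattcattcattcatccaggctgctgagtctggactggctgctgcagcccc

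Each window holds a pair of RUNX motifs in the reverse direction that are separated by 2 bases, written in capitals as ACCACA, and the Runx2 window holds 3 RUNX motifs in all. RUNX motifs stand in 16.8% of all windows. The other capitals are E-boxes and, in Runx1, 1 NKX motif; in Runx2, 6 bases belong to a RUNX motif and an E-box at once. The downstream windows of Runx1 and Runx3, also listed by RefSeq, hold no RUNX motif.

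Pax6, Pax9 and Pax5 fell in Kitl_OE cells, and Pax3 did not pass. Pax6, a factor of eye and islets, averaged 0.172 ± 0.0996 CPM in Kitl_OE cells and 0.766 ± 0.294 CPM in Egfp_OE cells (SD, n = 3 each), a log2 fold change of -2.13, adjusted p = 0.00619. Pax9, of tooth and pharyngeal pouches, averaged 0.0479 ± 0.0176 CPM in Kitl_OE cells and 0.680 ± 0.291 CPM in Egfp_OE cells, a log2 fold change of -3.70, adjusted p = 0.000670. Pax5, the B cell factor, passed at -3.99, adjusted p = 0.0390, but had 1.29 CPM at most in these groups, and its call ended without Egfp_OE replicate 1 (adjusted p = 0.0946), Egfp_OE replicate 2 (0.0671), any single Kitl_OE library (up to 0.119), shCtrl replicate 2 (0.0522) or shKitl replicate 2 (0.0501). Pax3, of neural crest and muscle progenitors and the Pax gene of highest level, had 54.7, 58.7 and 65.4 CPM in Kitl_OE cells, against 57.1, 41.4 and 52.4 CPM in Egfp_OE cells, a log2 fold change of 0.24 (SE 0.20, adjusted p = 0.363). It did not pass, and its libraries overlapped.

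A few remaining members were low or variable. Nkx6-1, a beta cell and motor neuron factor, had 2 counts in all Kitl_OE libraries and 47 in the Egfp_OE libraries, so that Egfp_OE held 21.6 times its level (exact 95% interval 5.65 to 183, counting error only). Dlx4 was lower than in Egfp_OE cells, at -1.66, adjusted p = 0.00908, while Dlx1, Dlx2 and Dlx5, which pattern jaw and forebrain, had log2 fold changes between -0.099 and 0.47 and did not pass. Olig1, an oligodendrocyte gene, had 2.33, 5.94 and 13.3 CPM in Kitl_OE cells, against 27.9, 46.1 and 9.67 CPM in Egfp_OE cells, a log2 fold change of -1.95 (SE 0.69, adjusted p = 0.0457). Its libraries overlapped and it spread widely in both groups; the call ended without Egfp_OE replicate 1 (adjusted p = 0.0771), Egfp_OE replicate 2 (0.151), Kitl_OE replicate 1 (0.137), Kitl_OE replicate 2 (0.135), shCtrl replicate 2 (0.0602), shCtrl replicate 3 (0.0527), shKitl replicate 1 (0.0544) or shKitl replicate 2 (0.0576). Lhx9, a gonad gene, was at most 0.68 CPM in these groups and did not pass (1.28, adjusted p = 0.180).

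Scaling by the spike-in RNAs left 25 of the 36 calls, 7 higher and 18 lower, while 15.4% of all genes were called. The 11 members whose calls ended under that scaling kept their direction, among them Runx1 (adjusted p = 0.0950), Runx2 (0.439), Prrx1 (0.210), Prrx2 (0.0583), Tbx18 (0.171), Barx1, Dlx4, Olig1 and Pax5. Limited to P 18 and 19, held by both lines (2 libraries each), the fit called 17 members, 4 higher and 13 lower, while 8.82% of all genes were called. Exons of Hand2, Gata6, Gata3, Six3, Runx1, Runx2, Tbx18, Tbx3, Pax9, Pax5, Dlx1, Dlx4, Meis1 and Olig1 overlap a gene on the opposite strand (for Hand2 the noncoding Hand2os1, for Six3 Six3os1), and those of Alx1, Gata3, Lhx6, Meis1 and Pbx2 overlap one on the same strand. The strand setting of the counting was not found in the labels, and reads of such pairs cannot be told apart.

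**Figure D4:**
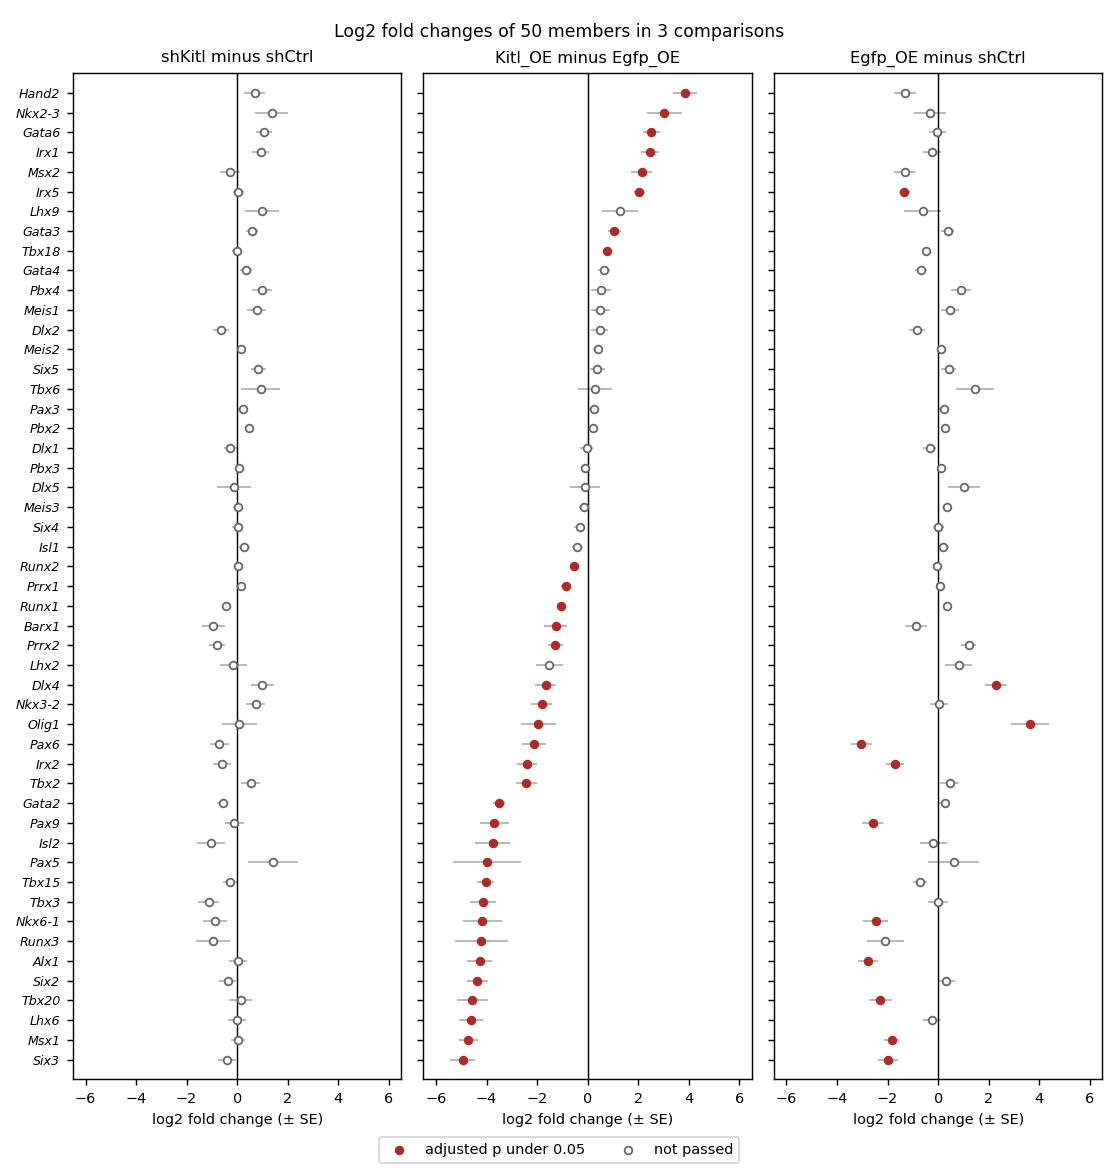
Log2 fold change (horizontal axis, bars are standard errors) of 50 of the 53 members in shKitl minus shCtrl, Kitl_OE minus Egfp_OE and Egfp_OE minus shCtrl, in the same order; filled points passed an adjusted p of 0.05. There are 0 filled points in the first panel, 33 in the second and 11 in the third, and the last 2 panels share the Egfp_OE libraries.

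Knockdown of Kitl gave no call among the members. By edgeR 0 of 53 passed, as did 0.0% of all genes in either direction, and the lowest adjusted p was 0.220, for Gata6. At an unadjusted p under 0.05 there were 11 members, 20.8%, beside 15.8% of all genes. DESeq2 also called 0 members, against 2.96% of all genes. The libraries of both groups did not overlap for 11 members (5 higher and 6 lower in shKitl cells), 20.8% beside 19.7% of all genes, so the share was near the background. The median log2 fold change was 0.045 over the members and 0.046 over all genes.

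Of the 8 members that rose in Kitl_OE cells, Gata6, Irx1, Nkx2-3 and Hand2 are given below by library in the hairpin lines. The others did not all lean upward in shKitl cells. Irx5 had a log2 fold change of 0.045 against shCtrl cells, Msx2 -0.29 and Gata3 0.58. Tbx18 averaged 19.5 CPM in shKitl cells and 19.8 CPM in shCtrl cells. Gata6 had 50.5, 47.7 and 22.7 CPM in shKitl cells, against 27.6, 16.3 and 13.7 CPM in shCtrl cells, a log2 fold change of 1.07 (SE 0.33, adjusted p = 0.220); without shKitl replicate 3 its adjusted p was 0.0450, the single member call made in any fit that left out 1 library. Irx1 had 79.2, 46.01 and 36.1 CPM in shKitl cells, against 34.9, 24.4 and 25.6 CPM in shCtrl cells, a log2 fold change of 0.93 (SE 0.34, adjusted p = 0.253). Nkx2-3 had 54.5, 31.4 and 10.9 CPM in shKitl cells, against 26.03, 8.32 and 3.14 CPM in shCtrl cells, a log2 fold change of 1.36 (SE 0.66, adjusted p = 0.334). Only the Irx1 libraries of these 3 genes did not overlap. Hand2 had 27.3, 15.8 and 8.63 CPM in shKitl cells, against 17.01, 8.20 and 6.61 CPM in shCtrl cells, a log2 fold change of 0.70 (SE 0.42, adjusted p = 0.419). Its values fell within the same span in both groups apart from the highest shKitl library.

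The members of highest level, and those of known mesenchymal role, also did not pass. Six2 had 31.9, 46.9 and 63.2 CPM in shKitl cells, against 48.2, 67.1 and 69.8 CPM in shCtrl cells, a log2 fold change of -0.38 (SE 0.35, adjusted p = 0.602). Prrx1 had 151, 218 and 168 CPM in shKitl cells, against 206, 146 and 136 CPM in shCtrl cells, a log2 fold change of 0.14 (SE 0.19, adjusted p = 0.750). Both overlapped. Barx1 had 14.2, 17.4 and 20.6 CPM in shKitl cells, against 30.9, 36.03 and 33.02 CPM in shCtrl cells, a log2 fold change of -0.94 (SE 0.44, adjusted p = 0.323). Pbx2 had 39.1, 44.95 and 34.6 CPM in shKitl cells, against 31.8, 27.04 and 26.4 CPM in shCtrl cells, a log2 fold change of 0.48 (SE 0.16, adjusted p = 0.235). Runx1 had 37.2, 41.2 and 35.5 CPM in shKitl cells, against 47.2, 53.1 and 56.2 CPM in shCtrl cells, a log2 fold change of -0.46 (SE 0.16, adjusted p = 0.239). These 3 had no overlap, Barx1 and Runx1 being lower and Pbx2 higher in each shKitl library, and none passed. Pax3, Gata4, Isl1, Nkx3-2, Meis1, Lhx2, Runx2 and Tbx18 had adjusted p between 0.334 and 0.968, with log2 fold changes from -0.15 to 0.78.

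Within the hairpin lines, some members were ordered by the P number of the library. In CPM, 10 of the 53 members were higher at each higher P number in shKitl and in shCtrl (18.9%), beside 6.04% of all genes tested, and 6 were lower at each (11.3%), beside 8.1%. Nkx2-3 was one of these, with 54.5, 31.4 and 10.9 CPM at P 13, 14 and 15 in shKitl cells, and 26.03, 8.32 and 3.14 CPM at P 14, 15 and 16 in shCtrl cells. Hand2 was another, with 27.3, 15.8 and 8.63 CPM in shKitl cells and 17.01, 8.20 and 6.61 CPM in shCtrl cells. At the P numbers that both lines share, 14 and 15, the Hand2 values of the lines were close. With only these 2 libraries per line, the log2 fold change of Hand2 was -0.089 (adjusted p = 0.987), and that of Nkx2-3 was 0.25 (0.976). Gata6, Lhx9, Olig1 and Pax3 made up the other members that were lower at each higher P number.

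Those higher at each higher P number were Alx1, Irx2, Isl2, Msx1, Runx3, Six2, Six3, Six4, Tbx15 and Tbx20. Six3 had 16.8, 22 and 36.98 CPM at P 13, 14 and 15 in shKitl cells and 18, 39.6 and 42.2 CPM at P 14, 15 and 16 in shCtrl cells. Tbx15 had 25.02, 37.3 and 44.1 CPM in shKitl cells and 34.6, 47.7 and 48.9 CPM in shCtrl cells. Of these 10 members, 9 were called lower in Kitl_OE than in Egfp_OE cells, all but Six4; of the 922 genes with that order, 23.6% were called lower and 5.97% higher. Of the 6 members with the falling order, 3 were called higher in Kitl_OE cells and 1 lower; of the 1237 genes with that order, 38% were called higher and 7.6% lower. The Kitl_OE and Egfp_OE libraries took no part in this ordering. Only 3 libraries per line stand behind each order, so it is given as a description.

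**Figure D5:**
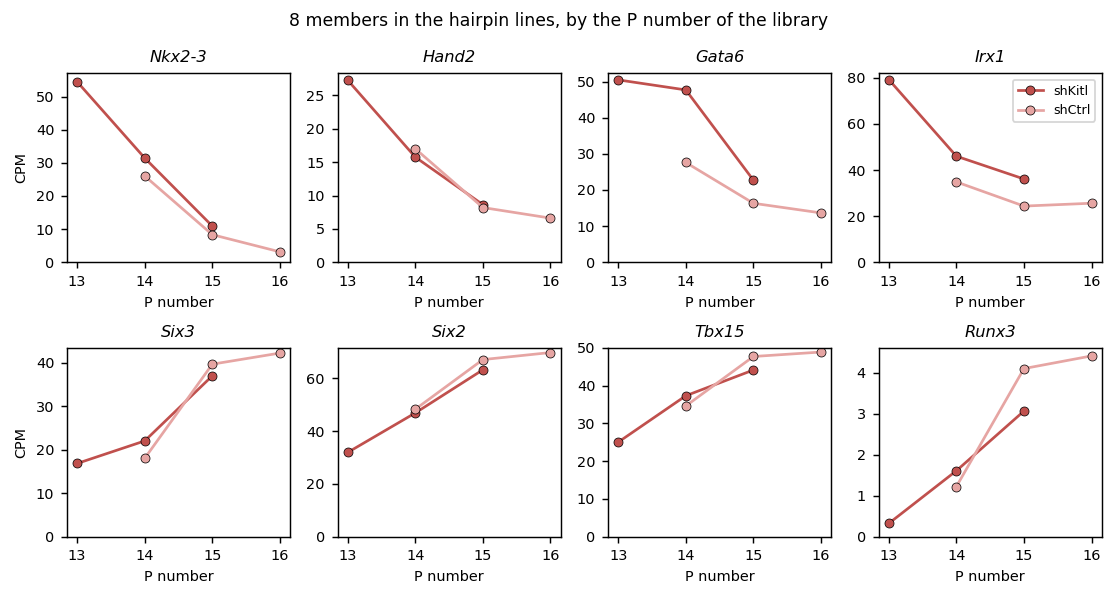
CPM (vertical axes, starting at 0) against the P number of the library for 8 members in the 2 hairpin lines, 1 point per library, shKitl dark and shCtrl light. Nkx2-3 and Hand2 were lower, and Six3, Six2, Tbx15 and Runx3 were higher, at each higher P number in both lines.

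The 2 control lines, neither of them labelled with a change of Kitl, also differed in members. In Egfp_OE cells 11 members passed (20.8%), 2 higher and 9 lower than in shCtrl cells, beside 1.25% of all genes (0.511% higher and 0.74% lower). Libraries did not overlap for 25 members (47.2%), beside 28.5% of all genes. Pax6 had 0.859, 1.002 and 0.436 CPM in Egfp_OE cells, against 5.30, 6.11 and 7.63 CPM in shCtrl cells, a log2 fold change of -3.05 (SE 0.42, adjusted p = 0.0196). Alx1 had 3.63, 3.49 and 1.54 CPM in Egfp_OE cells, against 12.5, 22.5 and 24.2 CPM in shCtrl cells, a log2 fold change of -2.77 (SE 0.39, adjusted p = 0.0204). Pax9 had 1.002, 0.601 and 0.436 CPM in Egfp_OE cells, against 2.73, 4.89 and 4.79 CPM in shCtrl cells, a log2 fold change of -2.58 (SE 0.41, adjusted p = 0.0247). In these 3 genes each Egfp_OE library lay below each shCtrl library. Nkx6-1 had 0.716, 0.441 and 0.369 CPM in Egfp_OE cells, against 2.17, 3.39 and 3.05 CPM in shCtrl cells, a log2 fold change of -2.47 (SE 0.51, adjusted p = 0.0444). Tbx20 had 3.75, 1.72 and 2.48 CPM in Egfp_OE cells, against 10.0, 13.3 and 15.8 CPM in shCtrl cells, a log2 fold change of -2.29 (SE 0.46, adjusted p = 0.0431). Six3 had 7.27, 11.7 and 6.28 CPM in Egfp_OE cells, against 18, 39.6 and 42.2 CPM in shCtrl cells, a log2 fold change of -1.98 (SE 0.38, adjusted p = 0.0376). They too were apart in every library, although the shCtrl values of Six3 ranged over 24 CPM.

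Msx1, Irx2 and Irx5 were also lower in Egfp_OE than in shCtrl cells, and Olig1 and Dlx4 were higher. Msx1 had 2.72, 2.88 and 2.38 CPM in Egfp_OE cells, against 7.14, 10.6 and 10.8 CPM in shCtrl cells, a log2 fold change of -1.84 (SE 0.29, adjusted p = 0.0247). Irx2 had 8.36, 5.97 and 5.07 CPM in Egfp_OE cells, against 16.6, 22.9 and 23.5 CPM in shCtrl cells, a log2 fold change of -1.70 (SE 0.37, adjusted p = 0.0496). Irx5 had 8.30, 5.65 and 4.13 CPM in Egfp_OE cells, against 15.2, 15.5 and 14.9 CPM in shCtrl cells, a log2 fold change of -1.33 (SE 0.22, adjusted p = 0.0266). These 3 did not overlap between the lines. The members that rose were Olig1, with 27.9, 46.1 and 9.67 CPM in Egfp_OE cells, against 3.39, 1.77 and 1.53 CPM in shCtrl cells and a log2 fold change of 3.63 (SE 0.74, adjusted p = 0.0434), and Dlx4, at 2.28, adjusted p = 0.0348 and a mean of 0.928 CPM in Egfp_OE cells. The median log2 fold change over the members was 0.001, against 0.052 over all genes.

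These calls depended on single libraries, as did the calls over all genes. Without shCtrl replicate 2, shCtrl replicate 3 or Egfp_OE replicate 3, 0 members passed, beside 0.0127%, 0.0127% and 0.0% of all genes. Without shKitl replicate 1 or 2, Egfp_OE replicate 2 or any single Kitl_OE library, 4 to 7 members passed. Of all genes, 2.15% passed without Egfp_OE replicate 2 and 0.281% to 0.812% in the others of these fits. No member and 0.0% of all genes passed when only the 2 groups were fitted or with the P number as a covariate. Spike-in scaling, which moved the median of all genes by -0.40 on the log2 scale, left 2 members, both lower, and 0.0655% of all genes.

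This comparison and that of Kitl_OE with Egfp_OE cells share the 3 Egfp_OE libraries, whose levels enter them with opposite signs. For members called in both, the values of each follow. Six3 had log2 fold changes of -4.95 (Kitl_OE minus Egfp_OE) and -1.98 (Egfp_OE minus shCtrl), Alx1 -4.27 and -2.77, Msx1 -4.72 and -1.84, Tbx20 -4.56 and -2.29. Pax9 had -3.70 and -2.58, Pax6 -2.13 and -3.05, and Irx2 -2.42 and -1.70. For these 7 genes and for Nkx6-1, whose count ratio is given above, the mean CPM was lowest in Kitl_OE cells, intermediate in Egfp_OE cells and higher in both hairpin lines. Irx5 (2.04 and -1.33), Olig1 (-1.95 and 3.63) and Dlx4 (-1.66 and 2.28) had opposite signs. Irx5 in Kitl_OE cells, at 24.9 CPM, was also above its shCtrl mean of 15.2 CPM. Olig1 averaged 7.21 CPM in Kitl_OE cells, above its shKitl (2.38 CPM) and shCtrl (2.23 CPM) means. The Dlx4 mean of 0.289 CPM in Kitl_OE cells lay between those of shKitl (0.377 CPM) and shCtrl cells (0.184 CPM).

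Whether the response to Kitl overexpression differed from that to its knockdown was tested as the difference of both log2 fold changes. It passed for 20 members (37.7%), 3 with a higher and 17 with a lower value under overexpression, beside 14% of all genes (4.07% higher and 9.88% lower). DESeq2 size factors gave 6 higher and 17 lower members, and spike-in scaling 4 higher and 11 lower. Over all genes these fits called 14.1% and 6.02%. The 3 higher ones were Hand2 (3.85 against 0.70, difference 3.16, adjusted p = 0.00588), Msx2 (2.14 against -0.29, difference 2.43, adjusted p = 0.0154) and Irx5 (2.04 against 0.045, difference 2.00, adjusted p = 0.00169). Those for Gata6, Irx1 and Nkx2-3 did not pass, with differences of 1.46, adjusted p = 0.0547, of 1.54, adjusted p = 0.0550, and of 1.66, adjusted p = 0.258. Among the lower ones was Msx1, with -4.72 under overexpression against 0.016 under knockdown (difference -4.73, adjusted p = 0.000137).

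Partners of these families and genes known as their targets were examined as lists. The 33 partner genes included the EYA coactivators of SIX2, TLE corepressors, LIM-domain binding proteins and FOG proteins (Zfpm1 and Zfpm2, the GATA cofactors). In Kitl_OE against Egfp_OE cells 29 were tested, with 7 higher and 9 lower, beside 15.4% and 18.9% of all genes. Their median log2 fold change was -0.21 (-0.070 over all genes). With spike-in scaling 2 were higher and 6 lower, where 15.4% of all genes were called in either direction. Twist2, a basic helix-loop-helix repressor related to TWIST1, a dimer partner of HAND2, had 0.739, 1.03 and 0.888 CPM in Kitl_OE cells, against 22.4, 56.2 and 26.1 CPM in Egfp_OE cells, a log2 fold change of -5.29 (SE 0.37, adjusted p = 4.39e-06). Dach1, a corepressor that works with EYA proteins, had 3 counts in all Kitl_OE libraries and 144 in the Egfp_OE libraries, with Egfp_OE at 44.0 times the Kitl_OE level (exact 95% interval 14.8 to 216). Ldb2, which bridges LIM homeodomain proteins to other factors, had 2 counts in Kitl_OE and 68 in Egfp_OE libraries, with Egfp_OE at 31.2 times the Kitl_OE level (8.31 to 263). Twist1 itself averaged 57.6 CPM in Kitl_OE cells and 53.9 CPM in Egfp_OE cells and was not called. Nor was Ldb1, another LIM-domain binding protein gene, at 140 and 166 CPM, where Ldb2 averaged 0.750 CPM in Egfp_OE cells. Twist1, Ldb1, Zfpm2, Eya1, Eya4 and Cbfb are named after their values were seen. Zfpm2, the cofactor of GATA4 and GATA6, rose, with 107, 100.5 and 76.9 CPM in Kitl_OE cells, against 46.9, 23.3 and 44.5 CPM in Egfp_OE cells, a log2 fold change of 1.31 (SE 0.24, adjusted p = 0.00162). Eya1 fell (-1.23, adjusted p = 0.00813), Eya4 rose (1.61, adjusted p = 0.0235) and Cbfb, the partner of RUNX proteins, fell (-0.59, adjusted p = 0.00912). Leaving out Kitl_OE replicate 1 or replicate 2 ended the Eya4 call (adjusted p up to 0.0560), and leaving out Kitl_OE replicate 1 ended the Cbfb call (adjusted p = 0.0626).

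Of 11 bone and cartilage genes linked to RUNX factors 7 were tested, 1 higher and 3 lower in Kitl_OE cells (median log2 fold change 0.099). Over all genes tested, 15.4% were called higher and 18.9% lower, here and for the cardiac genes below. Spp1, which encodes osteopontin, had 29.6, 59.2 and 39.7 CPM in Kitl_OE cells, against 1476, 2464 and 1450 CPM in Egfp_OE cells, a log2 fold change of -5.39 (SE 0.41, adjusted p = 7.95e-06); Phex, a bone mineralization gene, was also lower (-3.04, adjusted p = 0.000137) and Bglap2, an osteocalcin gene, higher (4.41, adjusted p = 0.00683). Bglap2 had 127 counts in the Kitl_OE libraries and only 6 in the Egfp_OE libraries. Of 10 cardiac genes bound by GATA4, NKX2-5 or TBX5 7 were tested, 3 higher and 2 lower (median log2 fold change -2.0). Tnnt2, cardiac troponin T, had 72.4, 109.5 and 51.4 CPM in Kitl_OE cells, against 1.46, 1.44 and 1.31 CPM in Egfp_OE cells, a log2 fold change of 5.79 (SE 0.37, adjusted p = 2.39e-06). Myl7, an atrial myosin light chain, had 207 counts in the Kitl_OE libraries and 2 in the Egfp_OE libraries, a ratio of 113 (exact 95% interval 30.8 to 938), and Nppb, a natriuretic peptide gene, was at 6.17, adjusted p = 0.000166. Nppb had 433 counts in the Kitl_OE libraries and only 6 in the Egfp_OE libraries, so its fold change rests on few counts. Tnni3, cardiac troponin I, had 0.272, 0.550 and 0.273 CPM in Kitl_OE cells, against 1.32, 4.05 and 1.95 CPM in Egfp_OE cells, a log2 fold change of -2.72 (SE 0.49, adjusted p = 0.00170). Mef2c, a partner of these factors in heart muscle, was also lower and averaged 1.31 ± 0.398 CPM in Kitl_OE cells and 5.28 ± 1.26 CPM in Egfp_OE cells (SD, n = 3 each, adjusted p = 0.0103 by edgeR). Both lists held genes that moved in each direction. The 4 myogenic factors downstream of PAX3 and PAX7 were too low to be tested. Over all genes tested, 0.0% passed in shKitl against shCtrl cells and 1.25% in Egfp_OE against shCtrl cells. In shKitl against shCtrl cells none of these list genes passed, and in Egfp_OE against shCtrl cells Tle1 was higher (0.97, adjusted p = 0.0309) and Dach2 (-1.78, adjusted p = 0.0476) and Tnnt2 (-1.85, adjusted p = 0.0321) lower.

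Marker lists of cell types were examined too, without a test of whether they moved with the members. Over all genes tested, 15.4% were called higher and 18.9% lower in Kitl_OE than in Egfp_OE cells. Of 12 mesothelial markers 6 were tested, and all 6 were higher in Kitl_OE than in Egfp_OE cells. The log2 fold changes of Gpm6a (9.77, adjusted p = 4.86e-05), Upk3b (9.23, adjusted p = 0.000380) and Nkain4 (8.64, adjusted p = 0.000178) led them. In the Egfp_OE libraries these 3 genes had only 16, 21 and 11 counts in all. They averaged 0.997, 1.01 and 0.570 CPM in shCtrl cells and 10.8, 23.9 and 4.23 CPM in shKitl cells. The list summed to 376.9 to 630.9 CPM in Kitl_OE cells and 16.6 to 31.1 CPM in Egfp_OE cells. Its sums were 109 to 189 CPM in shKitl cells and 76.6 to 103 CPM in shCtrl cells. Other markers thus made up most of the hairpin sums, and the sums do not show that the list moved as a whole. The markers not tested were too low for the test. Of 18 epithelial lineage factors outside these families 5 were tested and all 5 were lower in Kitl_OE cells, Sox9 among them (-4.61, adjusted p = 2.13e-06). Their sums were 3.15 to 4.51 CPM in Kitl_OE cells, 54.4 to 78.7 CPM in Egfp_OE cells, 19.3 to 24.9 CPM in shKitl cells and 24.4 to 43.4 CPM in shCtrl cells. Between the control lines Sox9 was called higher in Egfp_OE (mean 66.9 CPM) than in shCtrl cells (27.4 CPM), and 1 mesothelial marker was called lower, beside 1.25% of all genes. The Schwann and neural list summed to 116 to 129.8 CPM in Kitl_OE cells and 36.0 to 63.5 CPM in Egfp_OE cells. Most of the Kitl_OE sum was Mbp, the myelin basic protein gene, at a mean of 103 CPM in Kitl_OE cells and 9.72 CPM in Egfp_OE cells; of the 6 genes tested Mbp and S100b were higher and Ngfr and Elavl4 lower, with a median log2 fold change of -0.46. The blood and mast cell list summed to 21.1 to 30.8 CPM in Kitl_OE cells and 5.53 to 6.15 CPM in Egfp_OE cells. The endothelial list summed to 24.4 to 28.1 CPM in Kitl_OE cells and 10.7 to 10.9 CPM in Egfp_OE cells; of its 3 genes tested Kdr was higher (2.69, adjusted p = 0.000157) and Vwf lower (-1.89, adjusted p = 0.0294), with a median log2 fold change of -0.024. The pancreatic epithelial list summed to 4.94 to 11.6 CPM in Kitl_OE cells and 7.95 to 14.3 CPM in Egfp_OE cells. The stellate list summed to 21410 to 25460 CPM in Kitl_OE cells and 5102 to 6645 CPM in Egfp_OE cells. All 12 of its genes were tested, 6 higher and 3 lower, with a median log2 fold change of 1.14. Lum (5.04, adjusted p = 0.0243) and Acta2 (4.22, adjusted p = 0.00215) were among the higher ones and Pdgfra (-3.68, adjusted p = 0.000412) among the lower ones. Lum averaged 8.70 CPM in Kitl_OE cells and so added little to the sums. In shKitl cells 0 of the 7 marker lists had a gene that passed. The stellate sums, 7547 to 18500 CPM in shKitl cells and 5555 to 7244 CPM in shCtrl cells, did not overlap. Nor did the neural sums, 44.8 to 99.4 CPM in shKitl cells and 12.5 to 36.7 CPM in shCtrl cells, or the mesothelial sums given above. Of all single genes tested, 19.7% did not overlap between these groups. These sums are led by a few genes of high level and do not show that a list moved as a whole. The part of these markers in the members' differences was not tested.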

How the data were processed

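PolyA RNA of 12 libraries, 3 in each of 4 groups, was sequenced after NEBNext Ultra II preparation, per the labels' protocols. Per the submitters' processing notes, reads were aligned with STAR 2.5.2b to GRCm38 (mm10) and counted per gene with featureCounts (Subread 1.5.2), and DESeq2 is also listed; annotation release and strand setting are not given there. The deposited counts are raw counts per gene and library, not normalized and not pooled. The TPM values were deposited by the authors, per the file headers, scaled by a gene length whose definition they do not give, and are used here only for levels between genes and in 2 alternatives.

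Libraries were grouped by their labels. The 92 ERCC spike-in rows stayed out of library sizes. In R 4.3.3, edgeR 4.0.16 with TMM scaling, its expression filter by group and robust quasi-likelihood fits tested 15271 of 49671 genes over all 12 libraries, with Benjamini-Hochberg adjustment across them all. A call is an adjusted p under 0.05. CPM are counts over TMM-scaled library size. With 24979742 to 33517686 gene counts per library, precision for low members is set by counting error; exact intervals cover that alone. Levels are given for every library of members called where 1 group averages at least 1 CPM (at most 20 per comparison), for the 10 members of highest TPM and for 14 members fixed by name. The members and lists were chosen with earlier results of these data known. Alternatives were DESeq2 1.42.0, limma 3.58.1 (voom, and log2 TPM with pseudocounts of 1 and 0.1), other scalings and filters, P number, a replicate block and leaving out each library. Positions are from GENCODE M21 and promoter windows from RefSeq. The fits were tested on simulated data. Results by name of 3 expressed members and 1 marker are not reported here; the counts over the members include them.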

Additional observations from a re-analysis of the deposited data

Results flagged for a closer look

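Members stand here when the log2 fold change of Kitl_OE minus Egfp_OE cells differed from that of shKitl minus shCtrl cells in a test of the difference itself, by edgeR's quasi-likelihood fit with Benjamini-Hochberg adjustment over all genes. The test passed for 20 of the 53 members, of which 19 are given. Hand2, Msx2 and Irx5 had the higher value under overexpression. Hand2 had a difference of 3.16 (adjusted p = 0.00588), from 3.85 under overexpression and 0.70 under knockdown. Msx2 had a difference of 2.43 (adjusted p = 0.0154), from 2.14 under overexpression and -0.29 under knockdown. Irx5 had a difference of 2.00 (adjusted p = 0.00169), from 2.04 under overexpression and 0.045 under knockdown.

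Msx1, Lhx6, Alx1 and Prrx1 had the lower value under overexpression. Msx1 had a difference of -4.73 (adjusted p = 0.000137), from -4.72 under overexpression and 0.016 under knockdown. Lhx6 had a difference of -4.61 (adjusted p = 0.000520), from -4.62 under overexpression and -0.01 under knockdown. Alx1 had a difference of -4.31 (adjusted p = 0.00107), from -4.27 under overexpression and 0.045 under knockdown. Prrx1 had a difference of -1.01 (adjusted p = 0.0300), from -0.87 under overexpression and 0.14 under knockdown. So did 4 T-box genes. Tbx20 had a difference of -4.69 (adjusted p = 0.00242), from -4.56 under overexpression and 0.13 under knockdown. Tbx15 had a difference of -3.74 (adjusted p = 0.000208), from -4.04 under overexpression and -0.30 under knockdown. Tbx3 had a difference of -3.01 (adjusted p = 0.0105), from -4.14 under overexpression and -1.13 under knockdown. Tbx2 had a difference of -2.96 (adjusted p = 0.00503), from -2.42 under overexpression and 0.53 under knockdown.

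The remaining ones come from other families. Six3 had a difference of -4.55 (adjusted p = 0.000742), from -4.95 under overexpression and -0.40 under knockdown. Six2 had a difference of -3.98 (adjusted p = 0.000566), from -4.36 under overexpression and -0.38 under knockdown. Gata2 had a difference of -2.94 (adjusted p = 0.000230), from -3.51 under overexpression and -0.58 under knockdown. Irx2 had a difference of -1.80 (adjusted p = 0.0408), from -2.42 under overexpression and -0.61 under knockdown. Nkx3-2 had a difference of -2.55 (adjusted p = 0.0106), from -1.83 under overexpression and 0.73 under knockdown. Pax9 had a difference of -3.58 (adjusted p = 0.00637), from -3.70 under overexpression and -0.12 under knockdown. Dlx4 had a difference of -2.66 (adjusted p = 0.0139), from -1.66 under overexpression and 1.00 under knockdown. Nkx6-1 had a difference of -3.30 (adjusted p = 0.0378), with 2 counts in all Kitl_OE libraries, and the fit on log2(TPM + 1) gave it the opposite sign. The P numbers of the libraries differ between groups, and their part in these differences cannot be told apart from the groups except at shared numbers, where 13 members and 4.17% of all genes passed.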

How the results depend on the processing

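Counts of calls by edgeR over the 53 members were 0 for shKitl minus shCtrl, 36 for Kitl_OE minus Egfp_OE, 11 for Egfp_OE minus shCtrl and 20 for the difference of the Kitl comparisons. Leaving out each library in turn gave 0 to 1, 31 to 37, 0 to 12 and 17 to 24 calls in these comparisons. Over all genes those fits called 0.0% to 1.76%, 22.3% to 39.4%, 0.0% to 4.94% and 7.93% to 18.2%. The call gained under knockdown came without shKitl replicate 3. With only shared P numbers the calls were 17 for Kitl_OE minus Egfp_OE and 13 for the difference, where fewer libraries were fitted. A minimum of 5 CPM in 3 libraries, which tests fewer members, gave 13 for the difference, beside 13.6% of all genes. For Egfp_OE minus shCtrl, spike-in scaling gave 2 calls, the P number as a covariate 0 and the fit on only these groups 0. Over all genes these fits called 0.0655%, 0.0% and 0.0%, and the cause was not tested. DESeq2 gave 38, 16 and 26 calls in the last 3 comparisons, beside 39.4%, 10.2% and 19.9% of all genes.

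Of the gene lists, partners in Kitl_OE minus Egfp_OE had 16 calls, against 8 with spike-in scaling and 5 at shared P numbers, and leaving out a library gave 12 to 17. Over all genes these fits called 34.3%, 15.4% and 8.82%, and 22.3% to 39.4% without a library. The 5 CPM minimum called 36.4% of all genes. RUNX-linked genes had 4 calls (2 with the 5 CPM minimum, 3 to 4 without a library) and cardiac genes 5 (2 with the 5 CPM minimum, 3 at shared P numbers, 5 in each fit without 1 library). DESeq2 called 2 partners under knockdown, where edgeR called 0, beside 2.96% and 0.0% of all genes.

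Over single members and alternatives, the only reversed sign of a called value was Nkx6-1 in the difference of the Kitl comparisons, 0.098 on log2(TPM + 1). Of the single-member values for Kitl_OE minus Egfp_OE under the alternatives, 1201 kept their side of the threshold, 9 of them with the other sign (Dlx1, Dlx5 and Meis3, none called), and 89 lost and 15 gained a call; for Egfp_OE minus shCtrl these were 108 and 10, and for the difference 51 and 37. Spike-in scaling moved the all-gene median by -0.11 (knockdown), -0.40 (control lines) and 0.18 (difference) on the log2 scale.

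The correlation of deviations between libraries of the same replicate number was above 0.1 in some pairs only: r was 0.133, -0.441 and 0.598 for the hairpin pair, 0.046, 0.309 and 0.254 for the overexpression pair, and -0.024, -0.098 and 0.288 for the control pair. Hairpin libraries that share a P number had r of 0.608 (P 14) and 0.515 (P 15), and overexpression libraries that share one had -0.002 (P 18) and -0.285 (P 19). The replicate numbers were not treated as a pairing. The replicate block gave 0, 34, 6 and 22 calls in the 4 comparisons, and 16 partner, 5 RUNX-linked and 5 cardiac calls for Kitl_OE minus Egfp_OE. Over all genes it called 0.0%, 34.0%, 0.537% and 13.9% in these comparisons. Members with few counts are limited by depth, and 3 libraries per group limit the rest.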
